A study of Mus musculus with 36 samples.

Results

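The 7 genes examined were the transcription factors *Nfatc1*, *Nfatc2*, *Nfatc3*, *Nfatc4* and *Nfat5* and the calcineurin regulators *Rcan1* and *Rcan2*. They were chosen by name, as the NFAT factors and the RCAN regulators of the phosphatase that activates them, and all 7 were found among the 22392 GENCODE genes with an Entrez identifier. For each of 6 mice, 3 control and 3 *Ezh2ΔSET*, 1 peak list for K27me3 and 1 for K4me3 came from ChIP-Seq of the whole pancreas, taken 22 days after tamoxifen gavage at 2 to 4 months of age. Control mice are labelled Wildtype (in the study, C57BL/6 mice or mice with only the *Mist1creERT* allele, and the labels do not say which). *Ezh2ΔSET* mice (*Mist1creERT/+EZH2ΔSET*) lose the SET domain of the K27me3 methyltransferase EZH2. The tamoxifen-inducible Cre is driven from *Mist1* in acinar cells, so recombination is limited to these cells while the chromatin came from the whole organ, and a mark lost from acinar cells cannot be told apart from fewer acinar cells. *Mist1creERT* also replaces an allele of *Mist1* in the *Ezh2ΔSET* mice.

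Calcineurin is a phosphatase switched on by calcium and calmodulin. It removes phosphates from NFATc1 to NFATc4, which then enter the nucleus and bind DNA at a GGAAA core, often beside AP-1. NFAT5 lacks calcineurin control and drives the response to hypertonic stress. RCAN1 and RCAN2 bind calcineurin and inhibit it, and the internal promoter of *Rcan1* is itself a classic NFAT target. In the pancreas, secretagogues that raise acinar calcium activate calcineurin, and NFAT factors have been studied in pancreatitis and in metaplasia. K4me3 marks active or poised promoters, and K27me3 marks genes repressed by Polycomb.

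Both *Rcan1* and *Nfatc2* have more than one promoter, and a K4me3 peak was present at only the inner of the *Nfatc2* pair shown here but at both of the *Rcan1* pair, over fewer bases at the internal one. The 250 bases upstream of the RefSeq start (GRCm38.p6, the same assembly as mm10, minus strand, read toward the gene) are therefore shown for the 4 promoters concerned, in lower case with each GGAAA or its reverse complement TTTCC in capitals. The outer promoter of *Rcan1* is at chr16:92466170-92466419 and the internal one at chr16:92400079-92400328. The outer promoter of *Nfatc2* is at chr2:168601658-168601907 and the inner one at chr2:168590366-168590615.
Rcan1 outer: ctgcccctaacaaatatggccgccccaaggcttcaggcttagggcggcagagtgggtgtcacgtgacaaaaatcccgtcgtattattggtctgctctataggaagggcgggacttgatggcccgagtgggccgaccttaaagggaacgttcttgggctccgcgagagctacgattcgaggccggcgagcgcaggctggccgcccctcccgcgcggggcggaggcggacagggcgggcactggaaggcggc
Rcan1 internal: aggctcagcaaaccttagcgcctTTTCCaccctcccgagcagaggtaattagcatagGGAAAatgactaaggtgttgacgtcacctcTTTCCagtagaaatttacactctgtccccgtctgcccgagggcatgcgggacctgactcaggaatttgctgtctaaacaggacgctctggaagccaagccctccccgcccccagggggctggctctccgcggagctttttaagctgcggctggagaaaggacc
Nfatc2 outer: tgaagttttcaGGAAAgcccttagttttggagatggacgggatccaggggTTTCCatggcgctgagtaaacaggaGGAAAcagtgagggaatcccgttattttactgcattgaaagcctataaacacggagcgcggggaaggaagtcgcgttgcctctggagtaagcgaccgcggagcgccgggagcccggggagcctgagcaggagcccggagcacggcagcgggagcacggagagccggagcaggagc
Nfatc2 inner: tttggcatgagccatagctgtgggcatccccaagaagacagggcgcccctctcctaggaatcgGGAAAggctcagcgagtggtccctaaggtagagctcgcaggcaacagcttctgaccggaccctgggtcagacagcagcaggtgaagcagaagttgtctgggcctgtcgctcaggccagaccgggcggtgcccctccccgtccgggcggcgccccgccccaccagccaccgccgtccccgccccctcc
The *Rcan1* outer promoter held 24 CpG dinucleotides and no GGAAA on either strand. The *Rcan1* internal promoter held 11 CpG, 3 GGAAA matches and 1 TGANTCA (the AP-1 motif, which reads the same on both strands). At least 3 GGAAA matches were present in 6.39% of all 32851 RefSeq promoter windows of this length, and at least 1 TGANTCA in 6.75%. The *Nfatc2* outer promoter held 19 CpG and 3 GGAAA matches, against 16 CpG and 1 GGAAA match in the inner one. The median of all windows was 6 CpG.

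Each K4me3 list held 17400 to 25886 peaks and each K27me3 list 21420 to 31274. Depth is unknown, since the lists give positions only. Acinar markers carried K4me3 within 3 kb of a TSS in every mouse (9 of 9 genes). Control mouse 2 stood apart. Its K4me3 covered 36359 bases summed over the acinar markers, against 56244 to 60038 in the other 5 mice, it had K27me3 at 3 of 9 acinar markers, against 0, and K4me3 at 3 of 5 duct markers, against 5. In it 24.4% of genes had K27me3 within 3 kb of a TSS, where the remaining 5 mice ranged from 10.5% to 15.5%, and it had the fewest K4me3 peaks, 17400 against at least 24209. It also carried K4me3 at 5 of 7 T cell and 4 of 4 B cell markers, against 1 and 0 in each of the other 5 mice. Summed over the T cell markers, K4me3 covered 1898 to 24989 bases in controls and 1649 to 1897 in *Ezh2ΔSET* mice, and over the B cell markers up to 12525 in controls and 0 in *Ezh2ΔSET* mice. *Ezh2ΔSET* mouse 2 had K4me3 at 4 of 4 Y-linked genes and 17 K27me3 peaks on the X chromosome, whereas the other 5 mice had none at the Y-linked genes and 5637 to 7367 X peaks, so by these marks it differed in sex from the other 5. All members are autosomal.

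K27me3 was nearly absent from the 7 genes. *Nfatc1*, *Nfatc2*, *Nfatc3*, *Nfat5* and *Rcan1* had no K27me3 peak within 3 kb of a TSS or inside the gene in any of the 6 mice. *Nfatc4* and *Rcan2* had one in control mouse 2 alone, the library that stood apart. In that mouse 11.7% of autosomal K27me3 peaks overlapped a K4me3 peak, against 0.693% to 1.97% in the other 5 mice. At *Nfatc4* a peak at chr14:55819768-55830494 (mm10) covered 10351 bases of the TSS windows, and a second one, chr14:55803542-55819914, lay outside them, 3.23 kb from the nearest TSS. At *Rcan2* a single peak (chr17:43798051-43803051) covered 4701 bases of the windows, over the first promoter. Among the 12660 genes with K4me3 in all 6 mice, 78.5% had no K27me3 in any mouse and 13.6% had it only in control mouse 2, beside 5 and 2 of the 7 members. Without control mouse 2, no member had K27me3 in any mouse.

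The nearest K27me3 peak lay far from most members. For *Nfatc1* it was 222 to 260 kb from the gene in every mouse. For *Nfatc3* the median distance was 1441 kb, and for *Nfat5*, *Rcan1*, *Rcan2*, *Nfatc2* and *Nfatc4* the medians were 339, 229, 175, 171 and 134 kb. Within the wide window the study used for K27me3 (from 100 kb before a TSS to 3 kb after it), *Nfatc4* had a peak in control mouse 2 and in *Ezh2ΔSET* mouse 3, where it overlapped the second control peak and lay 11.6 kb from the nearest *Nfatc4* TSS. *Rcan1* and *Rcan2* had wide-window peaks only in control mouse 2, and the other 4 members in no mouse. The window held K27me3 in 27.8% to 35.6% of genes in the other 5 mice and in 54.4% in control mouse 2.

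K4me3 was present at all 7 genes in all 6 mice, as it was at 56.5% of the 22392 genes. TSSs of a gene within 1 kb of each other were treated as 1 promoter, which gave 26 promoters. Within 3 kb of the TSSs, 11 promoters carried K4me3 in 6 mice, 12 in none and 3 in some, and at each of those 3 control mouse 2 was the exception. Windows of neighboring promoters overlap, so 1 peak can count at several, as at promoters 1 and 2 of *Nfatc4* and of *Rcan2*. Within 500 bases of the TSSs, 9 promoters carried K4me3 in 6 mice, 14 in none and 3 in some.

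**Figure D1:**
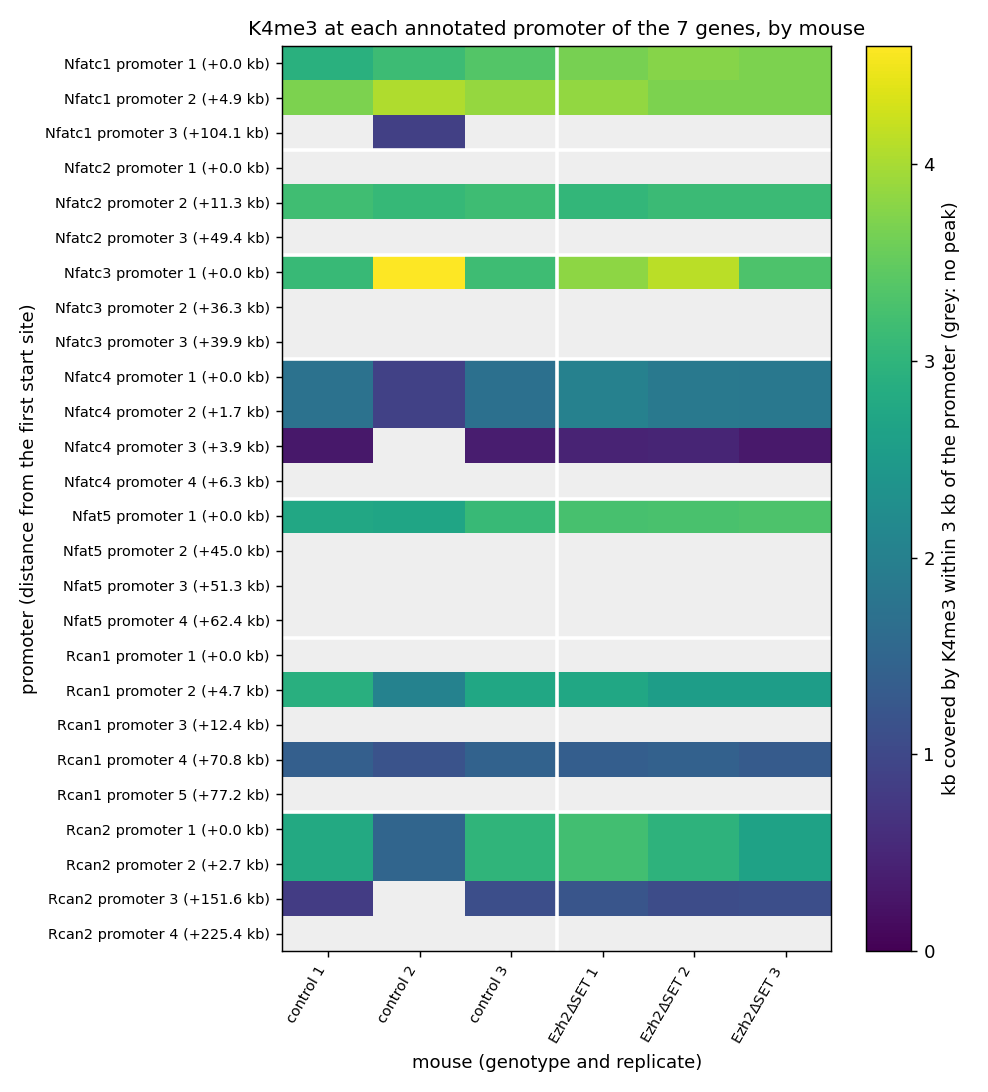
Length covered by K4me3 peaks (color, kb, 0 to the highest value) within 3 kb of each of the 26 annotated promoters (rows, with the distance in kb from the gene's first start site) in each of the 6 mice (columns, by genotype). Grey cells had no peak, and control mouse 2 differed from the other 5 mice at *Nfatc1* promoter 3, *Nfatc4* promoter 3 and *Rcan2* promoter 3.

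*Nfatc1* (chr18:80606205-80713071, minus strand, mm10), an NFAT factor studied in pancreatitis, had the longest K4me3 coverage of the group. In its TSS windows (the union of 3 kb on either side of every TSS) peaks covered 6611, 8069 and 7249 bases in control mice 1 to 3 and 7501, 7471 and 7397 in *Ezh2ΔSET* mice 1 to 3. The *Ezh2ΔSET* values lay within the control range. At the first promoter alone, singled out after its values were seen, they lay above it, at 3652, 3772 and 3697 bases against 2917, 3147 and 3368. The share of all promoters whose groups do not overlap was not computed. At the second promoter, 4.90 kb into the gene, the groups overlapped, with 3694, 4056 and 3881 bases in controls and 3849, 3699 and 3700 in *Ezh2ΔSET*. The peak over the second promoter was 4745 to 9604 bases wide and wider than 96.1% to 99.6% of the K4me3 peaks of its own library. The third annotated promoter, 104 kb into the gene, had a K4me3 peak within 3 kb only in control mouse 2 (866 bases).

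*Nfatc2* (chr2:168476410-168601657, minus strand) was marked at its inner promoter, 11.3 kb into the gene, in 6 of 6 mice, and the outer promoter shown above carried no K4me3 within 3 kb in any mouse. The TSS windows held 3188, 3075 and 3169 bases in controls and 3049, 3139 and 3144 in *Ezh2ΔSET*. The groups overlapped, and the spread within each was small (SD 60.5 and 53.5, n = 3 each).

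*Nfatc3* (chr8:106058840-106130537, plus strand), a calcineurin-controlled factor like *Nfatc1*, was marked at the first promoter in every mouse and at neither internal one. Its K4me3 covered 3105, 4601 and 3178 bases in controls and 3818, 4126 and 3322 in *Ezh2ΔSET*. The groups overlapped. In TSS windows control mouse 2, the mouse with K4me3 at T and B cell genes, had the highest value of the 6 at both *Nfatc3* and *Nfatc1*. In gene bodies it was the lowest at *Nfatc1* (9743 bases) and below *Ezh2ΔSET* mouse 2 at *Nfatc3* (4801 against 5306). The part of lymphocyte chromatin in these values was not tested.

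*Nfatc4* (chr14:55823144-55833943, plus strand) had the least K4me3, with 1739, 883 and 1703 bases in controls and 2015, 1854 and 1849 in *Ezh2ΔSET*. Every *Ezh2ΔSET* value was above every control value, and control mouse 2 was the lowest of the 6. The single peak lay between chr14:55822490 and chr14:55824509 over the first TSS, that of a noncoding transcript, and in no mouse did it reach the 250 bases upstream of the RefSeq start at chr14:55824795.

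*Nfat5* (chr8:107293470-107379517, plus strand), the osmotic stress factor, was marked only at its first promoter. Coverage was 2751, 2703 and 3102 bases in controls and 3266, 3273 and 3317 in *Ezh2ΔSET*. All *Ezh2ΔSET* mice were above all controls. The *Ezh2ΔSET* values spread over a narrow range (SD 27.6, n = 3) beside those of controls (SD 218, n = 3).

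*Rcan1* (chr16:92391953-92470867, minus strand), an inhibitor of calcineurin, carried K4me3 at both promoters shown above in 6 of 6 mice, including the NFAT-responsive internal one. The 3 other annotated promoters had no K4me3 within 3 kb in any mouse. At the outer promoter the values were 2904, 2033 and 2737 bases in controls and 2732, 2567 and 2568 in *Ezh2ΔSET*. At the internal promoter they were 1396, 1180 and 1442 bases in controls and 1368, 1434 and 1329 in *Ezh2ΔSET*. The groups overlapped at both, with control mouse 2 the lowest. Over all windows *Rcan1* had 4300, 3213 and 4179 bases in controls and 4100, 4001 and 3897 in *Ezh2ΔSET*.

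*Rcan2* (chr17:43801351-44039516, plus strand), the second calcineurin inhibitor, was marked at the first promoter in 6 of 6 mice and at the internal promoter 152 kb downstream in 5 of 6, being absent there in control mouse 2. Coverage was 3610, 1495 and 4113 bases in controls and 4419, 4049 and 3753 in *Ezh2ΔSET*. Control mouse 2 was the lowest of the 6, and the other 2 controls lay on either side of the lowest *Ezh2ΔSET* value. At the internal promoter the 5 marked mice had 822 and 1101 bases in controls and 1209, 1071 and 1101 in *Ezh2ΔSET*.

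**Figure D2:**
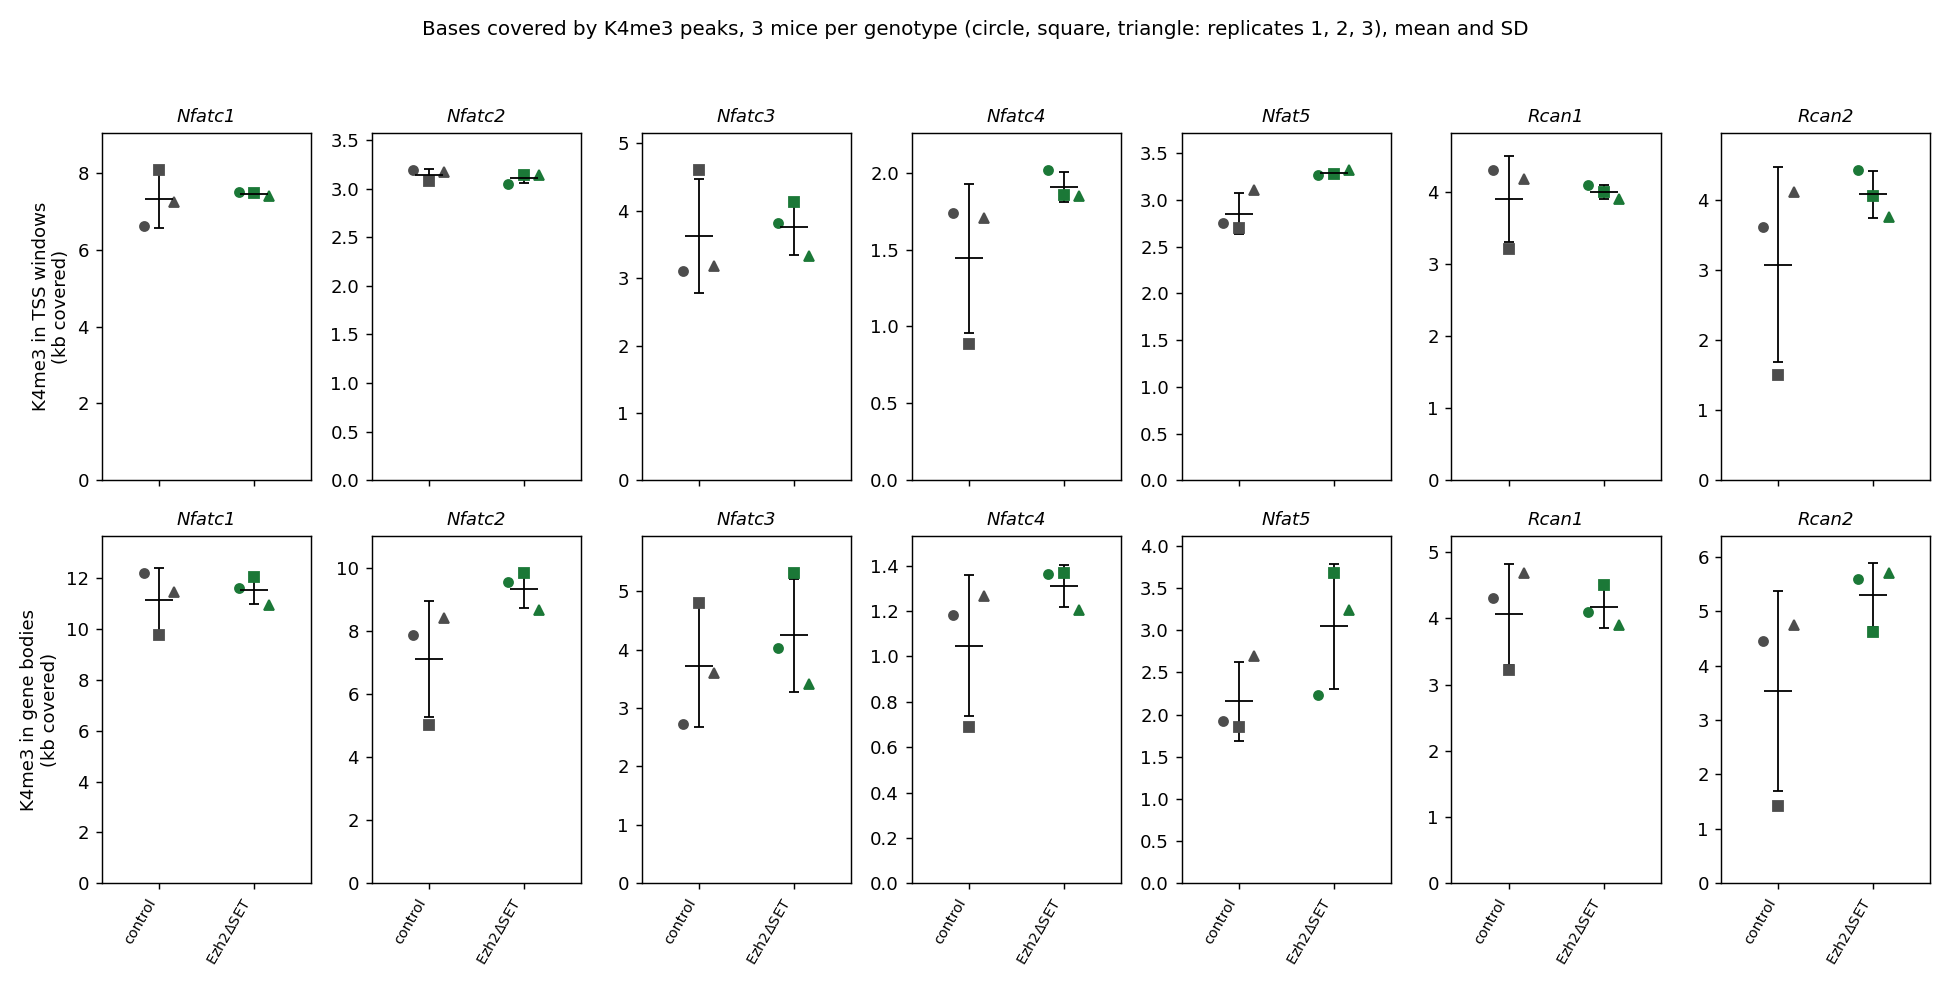
Kilobases covered by K4me3 peaks in the TSS windows (top) and gene bodies (bottom) of each gene, by genotype. Points are mice (circle, square and triangle for replicates 1, 2 and 3), bars are the mean and SD of 3 mice, and each panel has its own scale from 0; control mouse 2 is lowest for *Nfatc4*, *Nfat5*, *Rcan1* and *Rcan2* in the top row.

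K4me3 also occurred inside the genes, away from any annotated TSS of the gene. In *Nfatc1* an intronic region (chr18:80623752-80625823, 87.2 to 89.3 kb into the gene) was marked in 5 of 6 mice, all but control mouse 2, over 1641 to 1943 bases. In *Nfatc2* a group of 4 regions between chr2:168524559 and chr2:168534747, 66.9 to 77.1 kb into the gene and overlapping 1285 exonic bases, held most of the K4me3 outside the promoters. It covered 4212, 1031 and 5256 bases in controls and 6520, 6707 and 5524 in *Ezh2ΔSET*. All 4 regions were present in each *Ezh2ΔSET* mouse, while the controls had 3, 1 and 4 of them, and no other annotated TSS lay within 3 kb. A region of *Nfatc2* 44.6 to 45.5 kb into the gene (chr2:168556156-168557064, 909 bases) was present only in control mouse 2.

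The other members had smaller regions of this kind. In *Nfatc3* one 15.9 to 16.7 kb into the gene (chr8:106074741-106075527), within 3 kb of the TSS of *Gm27956*, was present in 3 *Ezh2ΔSET* mice and 1 control. In *Nfat5* one 17.9 to 19.3 kb into the gene (chr8:107311375-107312779) was present in 2 *Ezh2ΔSET* mice and 1 control. In *Rcan2* one 99.0 to 100.3 kb into the gene (chr17:43900400-43901645) was present in every mouse but control mouse 2, with 1129 and 879 bases in the other controls and 957, 638 and 841 in *Ezh2ΔSET*. A second *Rcan2* region, 31.1 to 32.3 kb into the gene (chr17:43832471-43833690), was present in 2 *Ezh2ΔSET* mice and 0 controls, and an *Rcan1* region 41.9 to 42.5 kb into the gene (chr16:92428384-92428942) in 1 mouse of each group. *Nfatc4* had none.

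**Figure D3:**
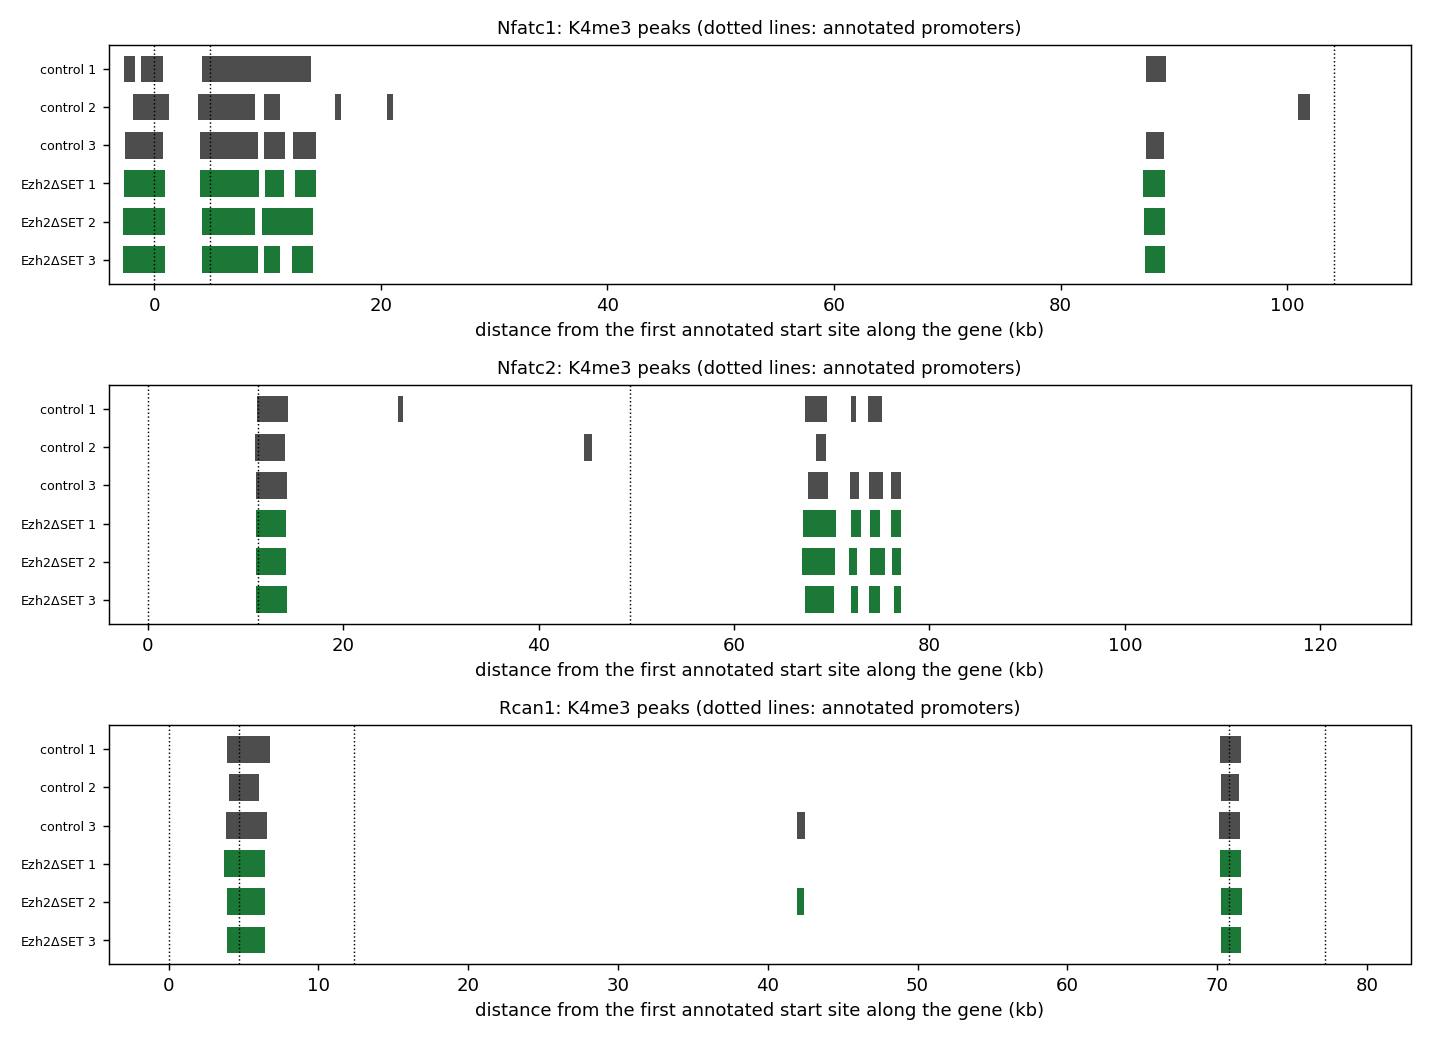
K4me3 peaks along *Nfatc1*, *Nfatc2* and *Rcan1* in each of the 6 mice (rows, colored by genotype), by distance in kb from the first annotated start site in the direction of transcription, with annotated promoters as dotted lines. *Nfatc2* lacks a peak at its outer promoter in all 6 mice and has a group of peaks 66.9 to 77.1 kb into the gene, and *Rcan1* has the same 2 promoter peaks in every mouse.

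To ask whether *Ezh2* deletion went with a difference at these genes, covered bases in *Ezh2ΔSET* and control mice were compared by an exact two-sided permutation test, which with 3 mice against 3 cannot give a p below 0.1, and groups were set apart when their values did not overlap. For K27me3 no member was set apart, and none could be, since at every member both groups held mice with no peak. Only *Nfatc4* and *Rcan2* had any value to compare (exact p = 1 for both), and 2.43% of the 7407 genes tested were set apart in TSS windows and 4.51% in gene bodies.

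In K4me3 TSS windows 2 of 7 members were set apart, *Nfatc4* and *Nfat5*, both higher in *Ezh2ΔSET*, against 11.3% of the 14601 genes tested. *Nfatc4* coverage was 1906 ± 94.4 against 1442 ± 484 bases (SD, n = 3, exact p = 0.1), a difference of 464 bases (SE 285) or 27.7% of the 6-mouse mean. *Nfat5* coverage was 3285 ± 27.6 against 2852 ± 218 bases (SD, n = 3, exact p = 0.1), a difference of 433 bases (SE 127) or 14.1%. *Rcan2* differed by 1001 bases (SE 825, exact p = 0.3) and *Nfatc1* by 147 (SE 423, exact p = 0.7). Both differences were less than the SD of the controls, as was that of *Nfatc4* (464 against 484 bases). Without control mouse 2 the *Nfatc4* difference was 10.1%, still with no overlap. The *Rcan2* difference, 28.0% of the mean, was 5.32% without control mouse 2 and 43.9%, with no overlap, without control mouse 3. Over the 7 members the median difference was 3.45%, beside 3.76% over all genes. Without control mouse 2 these medians were 7.26% and 0.699%, and omissions of the other mice gave medians over the members from 2.57% to 9.14% (7.82% without control mouse 1, 6.22% without control mouse 3 and 9.14% without *Ezh2ΔSET* mouse 3). *Nfat5* was no longer set apart in windows of 1 kb (4.64%, exact p = 0.2).

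Among the genes set apart in K4me3 TSS windows 81.4% were higher in *Ezh2ΔSET* (55.9% without control mouse 2), but after dividing by the autosomal length each library's peaks covered, 15.2% were, and the median was -8.30% over all genes and -8.53% over the members. With that scaling 3 of 7 members were set apart, against 15.5% of genes. *Nfatc4* was still higher (18.8%), and *Nfat5* differed by 1.91% (exact p = 0.8). *Nfatc2* (-13.6%, against -1.07% unscaled) and *Rcan1* (-8.53%, against 2.58% unscaled) were set apart as lower. Without control mouse 2, 6 of 7 members were set apart, against 22.7% of genes: *Nfatc1*, *Nfatc3*, *Nfatc4* and *Nfat5* were higher in *Ezh2ΔSET* by 7.26%, 17.5%, 10.1% and 11.4%, and *Nfatc2* and *Rcan1* lower (differences of -2.16% and -5.86%). Without *Ezh2ΔSET* mouse 2, the mouse with few X peaks, *Nfatc4* and *Nfat5* were both still set apart.

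In gene bodies 1 of 7 members was set apart for K4me3, against 12.7% of the 14812 genes tested. *Nfatc2* held 9569, 9846 and 8668 bases in *Ezh2ΔSET* and 7901, 5015 and 8425 in controls, a difference of 2247 bases or 27.3% of the mean (SE 13.6%, exact p = 0.1). The lowest *Ezh2ΔSET* value lay just above the highest control value. Without control mouse 2 the *Nfatc2* difference was 13.5%, still with no overlap, and with only peaks of at least 1 kb the groups overlapped (25.8%, exact p = 0.2). *Rcan2* and *Nfat5* differed by 39.8% (SE 25.3%, exact p = 0.2) and 34.0% (SE 19.4%, exact p = 0.2), with overlapping groups, and *Rcan2* by 14.0% without control mouse 2. Without control mouse 3, 4 of 7 were set apart (*Nfatc2*, *Nfatc4*, *Nfat5* and *Rcan2*, against 25.6% of genes). Leaving out *Ezh2ΔSET* mouse 1, 2 or 3 gave 2 each, *Nfatc2* with *Nfat5*, *Rcan2* or *Nfatc4*, against 18.1%, 21.9% and 19.9% of genes.

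**Figure D4:**
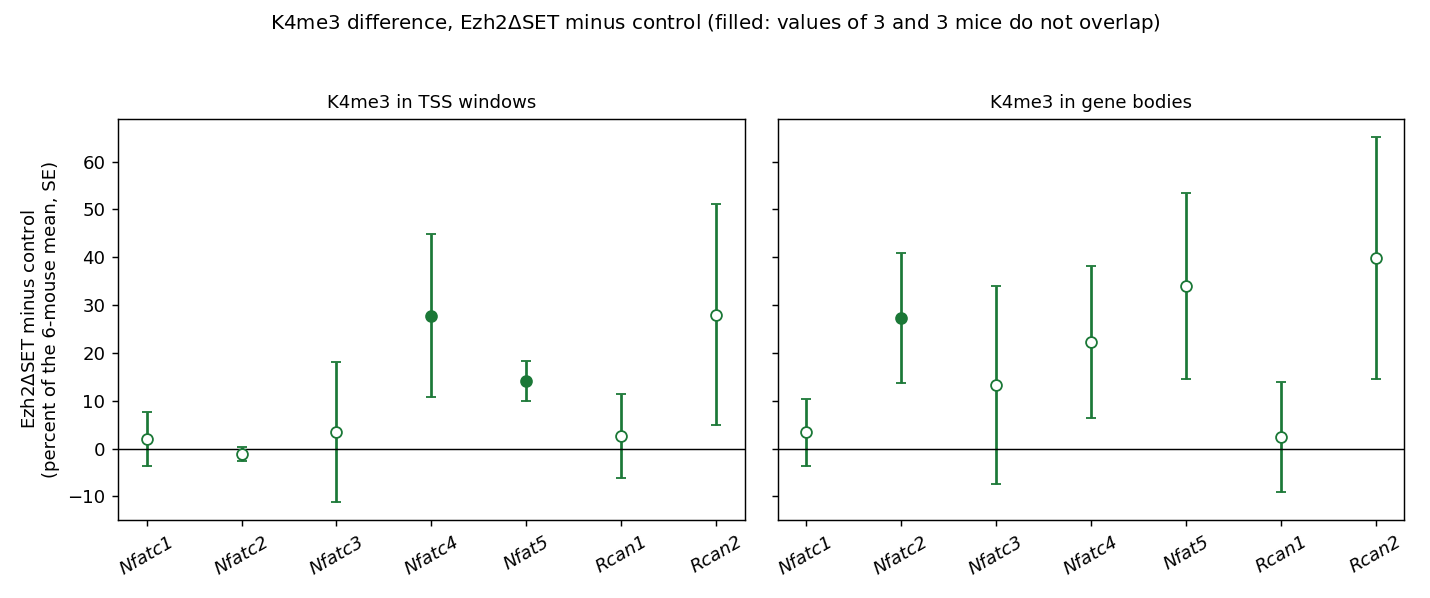
Difference in K4me3 coverage, *Ezh2ΔSET* minus control, in percent of the 6-mouse mean of each gene (points) with its SE (bars), in TSS windows and gene bodies. Filled points, *Nfatc4* and *Nfat5* in TSS windows and *Nfatc2* in gene bodies, are those whose values of 3 and 3 mice do not overlap.

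Other genes of the pathway were read from a fixed list of 48. K4me3 was present in all 6 mice at 36 and in none at 10. Calcineurin subunits were marked in 4 of 5 (all but *Ppp3r2*), calmodulins in 3 of 3, the calcium channel, sensor, receptor and phospholipase genes in 10 of 10, NFAT kinases in 5 of 5, immunophilins, the targets of calcineurin-blocking drugs, in 2 of 2, and cytoplasmic NFAT partners in 3 of 3. Among other calcineurin regulators 4 of 8 were marked in all mice. Of NFAT target genes of lymphocytes, such as *Il2* and *Ifng*, 0 of 6 were marked in all 6 mice and 5 in none, with *Tnf* marked in 1 control mouse. Both target genes of pancreatic cells, *Sox9* and *Ptgs2*, and 3 of 4 osmotic targets of NFAT5 were marked in all mice. K27me3 was found in at least 1 mouse at 4 of the 48, where 66.9% of all genes had it in no mouse. *Lrrk2* had it in 5 of 6 mice, all but control mouse 2. The X-linked *Cd40lg* also had it in 5 of 6, all but *Ezh2ΔSET* mouse 2, the mouse with almost no K27me3 on the X chromosome. *Homer2* and *Sox9* each had it only in control mouse 2, the library that stood apart.

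Among the 38 list genes with K4me3 to compare, 7 were set apart, all higher in *Ezh2ΔSET* (18.4%, against 11.3% of genes), with a median difference of 4.36% over the list beside 3.76% over all genes. They were *Chp1*, *Csnk1a1*, *Gsk3a*, *Ppia*, *Ppp3r1*, *Ptgs2* and *Rcan3*, and are named because their values were seen not to overlap. *Rcan3*, the third RCAN paralog, had 3393, 2314 and 3440 bases in controls and 3600, 3444 and 3544 in *Ezh2ΔSET* (14.6%, exact p = 0.1). Its difference was 3.24% without control mouse 2, and in windows of 1 kb the groups overlapped (1.02%). *Ppp3r1*, the regulatory subunit of calcineurin, had 2844, 2881 and 3040 bases in controls and 3341, 3108 and 3113 in *Ezh2ΔSET* (8.70%, exact p = 0.1), and its groups overlapped after scaling to covered length (-3.98%) and in windows of 1 kb (1.02%). The groups of *Csnk1a1* and *Gsk3a* also overlapped in windows of 1 kb (3.38% and 0%). *Ptgs2*, the cyclooxygenase gene, had 869 ± 320 bases in controls and 1133 ± 46.3 in *Ezh2ΔSET* (SD, n = 3, 26.3%, exact p = 0.1), and 7.19% without control mouse 2, still with no overlap. *Chp1*, a calcineurin homologous protein, had 7720, 2249 and 6260 bases in controls and 8147, 8374 and 8156 in *Ezh2ΔSET* (41.3%, exact p = 0.1), and 16.0% without control mouse 2. After scaling, the *Ptgs2* groups still did not overlap (17.7%), those of *Chp1* overlapped with a difference of 34.5%, and those of the other 5 overlapped with differences from -7.99% to 4.17%.

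For K27me3, 1 of the 4 list genes with a peak was set apart, against 2.43% of genes. *Lrrk2*, a kinase that holds NFAT in the cytoplasm, had 8337, 0 and 7409 bases of K27me3 in controls and 16191, 14088 and 11495 in *Ezh2ΔSET* (exact p = 0.1). Every *Ezh2ΔSET* mouse was above every control. The difference was 90.5% of the mean and 52.6% without control mouse 2, and the groups did not overlap there or after scaling. The groups overlapped with equal numbers of peaks (66.1%, exact p = 0.2), and with only peaks of at least 10 kb the sign turned (-17.4%, exact p = 1). Its K4me3 overlapped between the groups, at 1824, 3558 and 1302 bases in controls and 1625, 1981 and 1580 in *Ezh2ΔSET*.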

How the data were processed

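ChIP-Seq for K27me3 and K4me3 had been run on whole pancreata of 3 control and 3 *Ezh2ΔSET* mice. Per the study's methods and processing notes, the authors used Bowtie2 for alignment (mm10) and HOMER in histone mode for peak calling in each mouse against its input (FastQC is also named, versions are not given in the sources used here), and the deposited lists hold peak positions, an other kind of unit than counts or scores, with a score column of 1 for every peak. The 6 inputs were not analysed here. The other groups of the series, and the test planned across all its mice, are not reported here. Depth is unknown. Reference lengths for GRCm38.p6 held every peak end.

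The value computed was the number of bases of a region covered by peaks, over the union of 3 kb windows around every GENCODE vM21 TSS of a gene or over its body, for 22392 genes. Exact permutation tests of 3 mice against 3 (20 arrangements, Python 3.11.15, numpy 2.4.6, scipy 1.17.1) were tested on simulated data, and a gene was set apart when its values did not overlap between groups. Members, lists and tests were chosen with earlier results of these data known. Named genes are all 7 members, and the rule for pathway genes rested on the test not reported, so those named were chosen after their values were seen. A rule naming the genes most like a member applied to those with K27me3 in at least 3 mice, and none qualified. No source says that replicates were processed apart, so p-values measure the spread between these mice. Alternatives were the replicate number as a block, each mouse left out, minimum widths (5 kb for K27me3, 1 kb for K4me3), equal numbers of peaks, scaling, and other windows. For this comparison they, gene bodies and K27me3 peaks of at least 10 kb were added after seeing the data.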

Additional observations from a re-analysis of the deposited data

How the results depend on the processing

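K27me3 set no member apart under any alternative run. That count was fixed, since at every member both groups held mice with no K27me3, in the wide window too, so their values had to overlap. In K4me3 TSS windows the 2 members set apart (against 11.3% of genes) became 1 in 1 kb windows (*Nfatc4*, against 8.99%) and were 3 after scaling (15.5%). With basic protein-coding TSSs there were also 3 (10.6%), where *Nfatc1* was higher in *Ezh2ΔSET* too (6.01%, exact p = 0.1). The number ranged from 2 to 6 when single mice were left out (against at least 16.9%), with 6 without control mouse 2 (22.7%). In gene bodies the 1 member (*Nfatc2*, against 12.7%) became 2 (*Nfat5* and *Rcan2*) with a minimum width (11.9%) and with equal numbers of peaks (11.6%), and ranged from 1 to 4 over omissions (18.1% to 25.6%), with 4 without control mouse 3 and 2 without each *Ezh2ΔSET* mouse. Mice with K27me3, summed over members, numbered 2, became 4 in the wide window and 1 with peaks of at least 10 kb. Over all genes, the 180 set apart for K27me3 in TSS windows became 321 after scaling, 97 in 1 kb windows, 793 in the wide window and 73 with peaks of at least 10 kb (328 to 603 over omissions), and the 324 in gene bodies became 154 with peaks of at least 10 kb (520 to 774). For K4me3 the 1653 in TSS windows ranged from 2458 to 3936 over omissions and the 1878 in gene bodies from 2671 to 3780, where groups of 2 and 3 overlap less readily. Scaling moved the share that was higher from 81.3% to 26.0% in K4me3 gene bodies, and for K27me3 from 87.2% to 30.8% in TSS windows and from 93.2% to 46.8% in gene bodies. Without control mouse 2 these shares were 57.0%, 76.5% and 80.6%, and the median K27me3 difference over all genes tested turned from -41.5% to 34.9% in TSS windows and from -19.0% to 30.7% in gene bodies. Omissions of the other mice gave K27me3 shares from 48.7% (without control mouse 1) to 89.3% in TSS windows and from 70.4% to 93.0% in gene bodies. They gave K27me3 medians from -72.7% (without *Ezh2ΔSET* mouse 3) to -51.3% in TSS windows and from -39.1% to -19.6% in gene bodies. The other causes were not tested.

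The sources do not say that replicate numbers pair the mice. Correlations of same-numbered deviations ranged from -0.0849 to 0.105 for K27me3 and from 0.0611 to 0.231 for K4me3. With 3 pairs per mark and no different-numbered pairs beside them, these cannot show whether the numbers pair mice. With the replicate number as a block, a gene was counted when all 3 same-numbered differences had 1 sign (exact p = 0.25, the smallest possible), a looser condition. It held for 0 members for K27me3, again a fixed count, since same-numbered mice without K27me3 differed by 0. For K4me3 it held for 2 members in TSS windows (*Nfatc4* and *Nfat5*) and 3 in gene bodies (*Nfatc2*, *Nfat5* and *Rcan2*). Over all genes it held for 349, 569, 3764 and 4128 (4.71%, 7.92%, 25.8% and 27.9%) in K27me3 TSS windows, K27me3 gene bodies, K4me3 TSS windows and K4me3 gene bodies. Positions without heights limit every value to where a peak was called.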
